A study of Auricularia auricula-judae with 2 samples.

Results

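The pgt1 genes of Auricularia auricula-judae, the wood-ear mushroom, are 4 assembled genes whose best Swiss-Prot match is glutathione transporter 1. They were taken as the genes that hold 4 listed transcripts (TBIU012296, TBIU066844, TBIU022496 and TBIU021005), out of 43428 assembled genes, and they comprise 7 of 57717 assembled transcripts. The transcripts were chosen by their FPKM and by their ratio between the libraries, as 1 strongly raised copy, 1 abundant copy and 2 moderate ones, so the levels and ratios of the 4 genes are a description and support nothing. RNA came from fruit bodies in 2 groups. In the irradiated group, mycelium grown on PDA plates for 14 days at 25 °C was exposed to 200 Gy of gamma radiation. In the control group it was not exposed. Both then grew in sawdust with rice bran for 30 days at 25 °C, and fruit bodies formed at 18 °C and a humidity of 90%, so the RNA is from tissue formed after the exposure. With a single library per group, the differences below cannot be set against replicates, and none was tested.

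Glutathione is a small thiol peptide of glutamate, cysteine and glycine that buffers the redox state of the cell and stores sulfur. In the fission yeast Schizosaccharomyces pombe, Pgt1 is a plasma membrane transporter that takes up intact glutathione, and it belongs to the oligopeptide transporter (OPT) family, as does Hgt1/Opt1 of budding yeast. Glutathione taken up this way can serve as a source of cysteine and sulfur. The name pgt1 is carried over from the closest Swiss-Prot protein, and what these mushroom proteins transport is not known from the deposited values.

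Levels are FPKM, fragments per kilobase of transcript, scaled to library size, with the isoforms of a gene summed. Ratios are log2 of irradiated over control on FPKM + 1. Depth is given in scaled values, the authors' second pair of values, which behave like read counts put on a common scale and whose sum over both libraries is called scaled reads. The 8249 genes with 100 or more scaled reads, to which all 4 pgt1 genes belong, are taken as measured. The scaled values summed to 8404060 in the irradiated library and 8872430 in the control library, and the median log2 ratio of the measured genes was 0.10. Genes described as fruiting body proteins were present in both libraries. SC3 (TBIU005515) had 32.7 FPKM in the irradiated and 39.7 FPKM in the control library. The more abundant SC7 gene (TBIU011590) had 256 FPKM in the irradiated and 137 FPKM in the control library. The other SC7 gene (TBIU010424) was low, with 11.0 FPKM in the irradiated and 8.99 FPKM in the control library. These descriptions come from protein names and were not tested as markers of the tissue. In such bulk RNA, fewer cells of a type and less RNA per cell cannot be told apart.

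One pgt1 gene stood far higher in the irradiated library while the other 3 stayed within 2-fold. TBIU012296 had 426 FPKM in the irradiated library and 35.3 FPKM in the control library, a 12.1-fold difference and a log2 ratio of 3.56. It rests on 8780 scaled values in the irradiated library and 767 in the control library, which give an exact 95% counting interval of 3.41 to 3.63 for the log2 ratio of scaled values. Such intervals cover counting error only and leave out any difference between fruit bodies, harvests or library preparations. The gene had the 9th highest log2 ratio of the 8249 measured genes. By FPKM it ranked 314th among them in the irradiated library and 4064th in the control library. Of 1965 measured genes with 23.5 to 53.0 FPKM in the control library, within 1.5-fold of this gene's level there, 2 reached its irradiated level of 426 FPKM, itself among them. The median of these 1965 genes was 37.3 FPKM in the irradiated library.

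TBIU066844 was the most abundant pgt1 gene by FPKM in both libraries. It had 1808 FPKM in the irradiated library and 2039 FPKM in the control library, so its log2 ratio was -0.17 (counting interval -0.30 to -0.17). It ranked 31st by FPKM in the irradiated and 28th in the control library. TBIU022496 had 104 FPKM in the irradiated library and 58.2 FPKM in the control library (log2 ratio 0.83, interval 0.64 to 0.89). TBIU021005 had 81.5 FPKM in the irradiated library and 62.8 FPKM in the control library (log2 ratio 0.37, interval 0.21 to 0.40). From high to low FPKM, the order was TBIU066844, TBIU012296, TBIU022496 and TBIU021005 in the irradiated library, and TBIU066844, TBIU021005, TBIU022496 and TBIU012296 in the control library. Whether neighbours in these orders differ beyond the spread between fruit bodies cannot be told from 1 library each. Thus 1 of 4 pgt1 genes passed 2-fold upward, as did 9.32% of all measured genes, and 0 of 4 passed it downward, as did 8.68% of all measured genes. These counts follow from how the genes were picked.

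**Figure D1:**
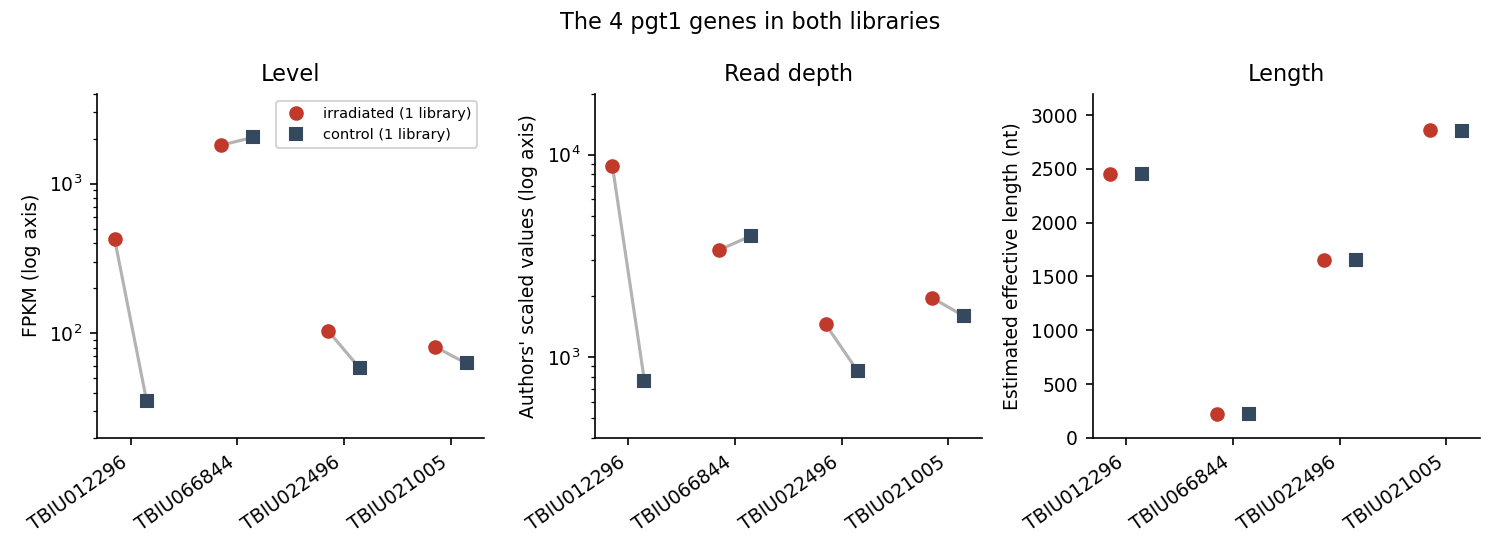
FPKM (log axis), the authors' scaled values (log axis) and estimated effective length in nucleotides of the 4 pgt1 genes, with 1 point per library and lines joining the libraries of a gene. TBIU012296 has 426 FPKM in the irradiated and 35.3 FPKM in the control library. TBIU066844, with an estimated effective length of about 221 nucleotides, lies at 1808 FPKM in the irradiated and 2039 FPKM in the control library.

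**Figure D2:**
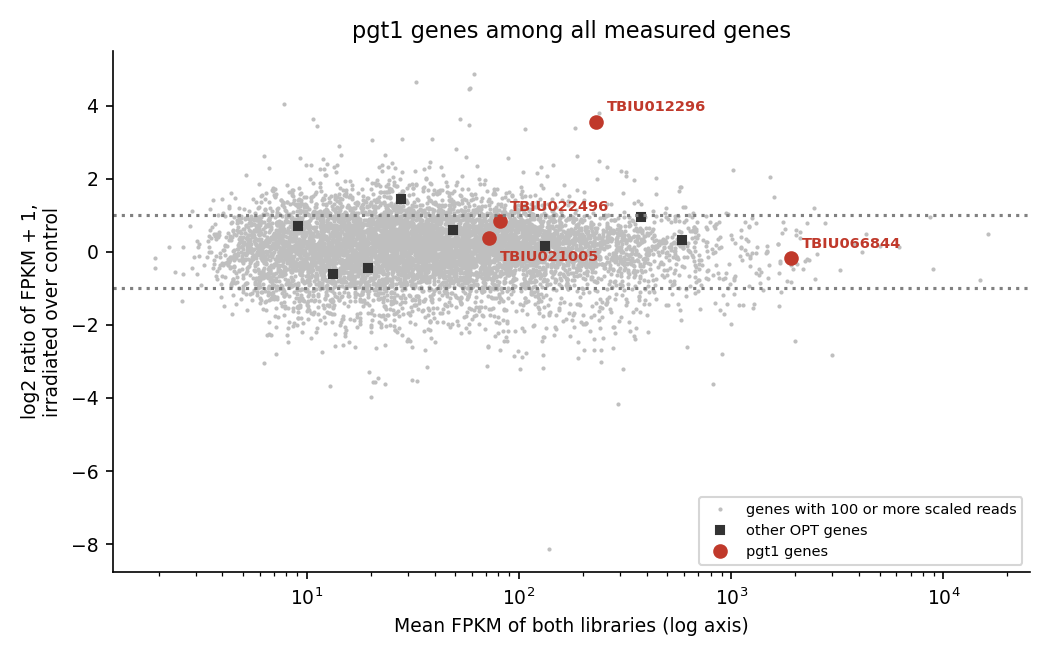
Log2 ratio of FPKM + 1, irradiated over control, against the mean FPKM of both libraries (log axis) for the 8249 genes with 100 or more scaled reads, with dotted lines at 2-fold. TBIU012296 lies at 3.56, and the other pgt1 genes lie between -0.17 and 0.83, inside the dotted lines.

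The ratios of the pgt1 genes are set side by side over the 6 pairs as a description only, since the genes were chosen by these ratios. The log2 ratio of TBIU012296 exceeded that of TBIU066844 by 3.73, and the same difference in scaled values was 3.75 with a 95% counting interval of 3.62 to 3.87. It exceeded that of TBIU021005 by 3.19 and that of TBIU022496 by 2.73. Between the moderate copies the difference was 0.46, TBIU022496 over TBIU021005, with an interval of 0.31 to 0.62 in scaled values. TBIU022496 and TBIU021005 exceeded TBIU066844 by 1.0 and 0.54. A factor common to a whole library cancels in these differences. Their intervals are normal approximations on rounded scaled values.

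The 4 genes together had 2420 FPKM in the irradiated library, 0.246% of all its FPKM, and 2195 FPKM in the control library, 0.226% of its FPKM. TBIU066844 made up most of this sum, with 74.7% in the irradiated library and 92.9% in the control library. TBIU012296 held 17.6% of it in the irradiated library and 1.61% in the control library. Without TBIU066844, the other 3 genes summed to 612 FPKM in the irradiated library and 156 FPKM in the control library, a 3.92-fold difference. TBIU066844 stood 4.24-fold above TBIU012296 by FPKM in the irradiated library and 57.8-fold above it in the control library.

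The high FPKM of TBIU066844 stands beside a short estimated effective length. The effective length that FPKM was divided by was estimated from the ratio of scaled value to FPKM. It came to 222 nucleotides in the irradiated and 219 in the control library for TBIU066844. For the others, the estimates in the irradiated library were 2452 nucleotides for TBIU012296, 2861 for TBIU021005 and 1656 for TBIU022496, and in the control library they were 2450, 2853 and 1653 nucleotides. Among the 8249 measured genes the median estimate was 1214 nucleotides, and 4.22% were as short as TBIU066844. By scaled values, which are not divided by length, TBIU012296 was the first of the 4 in the irradiated library, with 8780 against 3380 for TBIU066844. In the control library it was the last, with 767 against 3970 for TBIU066844. Its share of the scaled values of the 4 genes was 56.4% in the irradiated library (exact 95% interval 55.6 to 57.2%) and 10.7% in the control library (9.98 to 11.4%). Whether TBIU066844 is a fragment of a longer transcript was not tested.

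The raised gene TBIU012296 was assembled as 4 isoforms, all described as glutathione transporter 1 and all higher in the irradiated library. Isoform 3 (transcript TBIU012296), which carried most of the signal, had 344 FPKM in the irradiated library and 29.2 FPKM in the control library. Isoform 1 (TBIU012294) had 26.4 FPKM in the irradiated and 2.23 FPKM in the control library. Isoform 2 (TBIU012295) had 27.9 FPKM in the irradiated and 2.86 FPKM in the control library. Isoform 4 (TBIU012297) had 28.0 FPKM in the irradiated and 1.01 FPKM in the control library. The 3 minor isoforms were thus level with each other in the irradiated library, while in the control library isoform 4 was the lowest. Their estimated effective lengths were alike, at 2320, 2508, 2460 and 2410 nucleotides for isoforms 1 to 4 in the irradiated library.

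Isoform 3 made up 81.0% of the gene's scaled values in the irradiated library (exact 95% interval 80.1 to 81.8%) and 82.9% in the control library (80.1 to 85.5%), and these intervals overlapped. Those of isoforms 1 and 2 overlapped as well. Isoform 4 held 6.46% in the irradiated library (5.95 to 6.99%) and 2.80% in the control library (1.81 to 4.31%), and its intervals did not overlap. Its control share rests on 21.5 scaled values. Such shifts were also seen in other OPT genes. In an isp4 gene, TBIU018623 held 34.4 to 37.6% in the irradiated and 24.8 to 27.8% in the control library. TBIU018622 of that gene held 17.6 to 20.2% in the irradiated and 22.3 to 25.3% in the control library. How often isoforms of all genes shift this way was not counted. The log2 ratios of scaled values were 3.49, 3.21, 3.48 and 4.72 for isoforms 1 to 4, and the interval of isoform 4, 4.08 to 5.37, lay above that of isoform 3, 3.37 to 3.60. On FPKM + 1 the ratio of isoform 4 was 3.85, since the added 1 FPKM is as large as its control level. How reads were divided between isoforms of 1 assembled gene depends on the authors' quantification. Without isoform 4 the log2 ratio of the gene was 3.50.

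**Figure D3:**
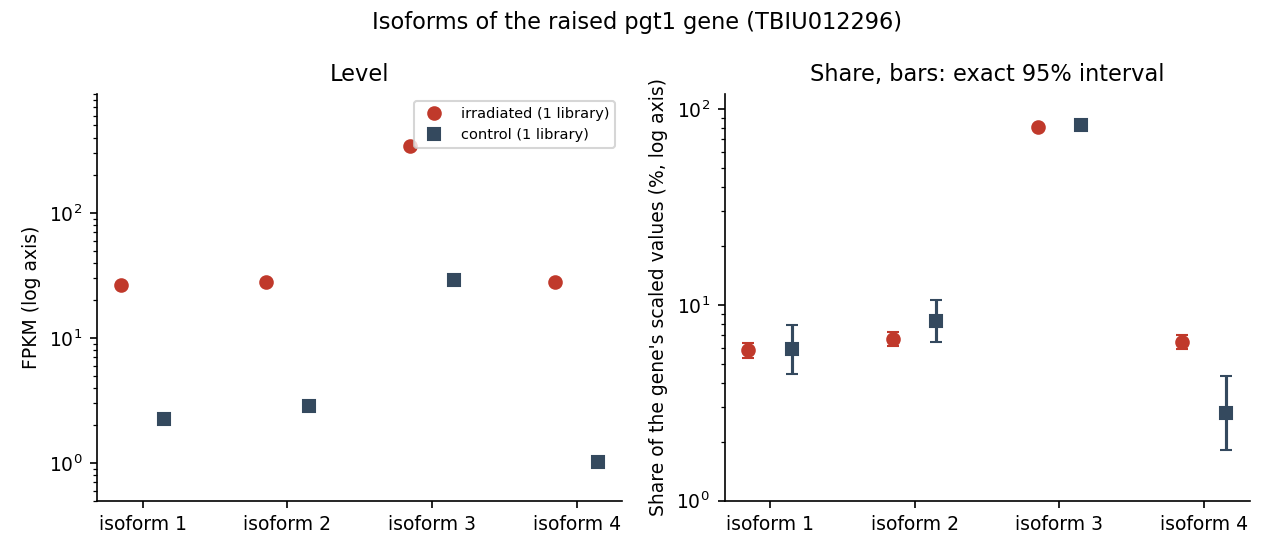
FPKM (log axis) of the 4 isoforms of TBIU012296, and each isoform's share of the gene's scaled values (percent, log axis) with exact 95% counting intervals, 1 library per group. All 4 isoforms are higher in the irradiated library, and isoform 4 holds 6.46% there and 2.80% in the control library.

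In the authors' deposited table, isoform 4 of this gene had a log2 fold change of 4.72 and a p-value of 0.0402. It was the only one of the 13 transcripts described as glutathione transporter 1 with a p-value of 0.05 or less. The authors' deposited table has 2.33% of all transcripts at or below that value, and q-values of 1 for every transcript. Isoform 3 had a p-value of 0.105 in the authors' deposited table. There, TBIU066844, TBIU022496 and TBIU021005 had p-values of 0.906, 0.699 and 0.879. Which test gave them is not stated in the labels or the file header.

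A further 6 assembled genes held 1 transcript each that was described as glutathione transporter 1, and these transcripts had fewer than 100 scaled reads. In 1 of these genes other transcripts lacked that description. There the described transcript held 13.0% of the gene's scaled values in the irradiated library and 6.23% in the control library. The 6 described transcripts held between 2.90 and 9.95 scaled reads each, 26.7 in all, with estimated effective lengths between 21.5 and 241 nucleotides. Of these, 3 were listed at 0 in the control library and 1 was listed at 0 in the irradiated library. At this depth no direction can be given for any of them, although their FPKM reached up to 16.3.

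Other OPT family genes gave 8 measured genes, 5 of them described as isp4, an OPT family protein of fission yeast known from sexual differentiation. Among the 8, 1 passed 2-fold upward and 0 downward, and their median log2 ratio was 0.46, against 0.10 over all measured genes. The higher gene was an isp4 gene (TBIU011879) with 41.3 FPKM in the irradiated library and 14.5 FPKM in the control library (log2 ratio 1.44). Its counting interval in scaled values, 0.91 to 1.40, lay below that ratio. An isoform of the gene with a short estimated effective length (TBIU011878, 168 nucleotides) had 8.37 FPKM in the irradiated library from 11.8 scaled values. It was listed at 0 in the control library. The gene's isoform of most reads alone gave 1.28. The most abundant was another isp4 gene (TBIU018351), with 651 FPKM in the irradiated library and 519 FPKM in the control library (log2 ratio 0.33). The 5 isp4 genes had ratios from 0.15 to 1.44, beside the median of 0.10 over all measured genes. The lowest (TBIU018624) lay near that median, and its isoforms had ratios of -0.17, 0.60 and 0.01. OPT1 (TBIU024314), described as oligopeptide transporter 1, had a log2 ratio of -0.62. OPT3 (TBIU025195) had -0.44 by FPKM, while its counting interval in scaled values ran from 0.05 to 0.64, so its direction differed between the units. In the control library, 10.7 of the gene's 22.5 FPKM came from an undescribed isoform (TBIU059760) with an estimated effective length of 54.6 nucleotides. That isoform held 5.17 scaled values there and was listed at 0 in the irradiated library. Another 20 OPT genes held fewer than 100 scaled reads.

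TBIU022496 shares an assembly cluster with the second most abundant isp4 gene (TBIU022498), and both were moderately higher. This isp4 gene had 494 FPKM in the irradiated library and 256 FPKM in the control library, a log2 ratio of 0.95, beside 0.83 for TBIU022496. Its 3 isoforms had log2 ratios of 0.63, 1.11 and 0.78. Reads shared between these genes were not tested. Over all 12 measured OPT genes, TBIU012296 held 11.1% of the summed FPKM in the irradiated library and 1.10% in the control library. By scaled values it held 20.4% of the family in the irradiated library and 2.75% in the control library. TBIU066844 held 47.0% of the family's FPKM in the irradiated and 63.8% in the control library, but 7.87% of its scaled values in the irradiated and 14.2% in the control library.

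**Figure D4:**
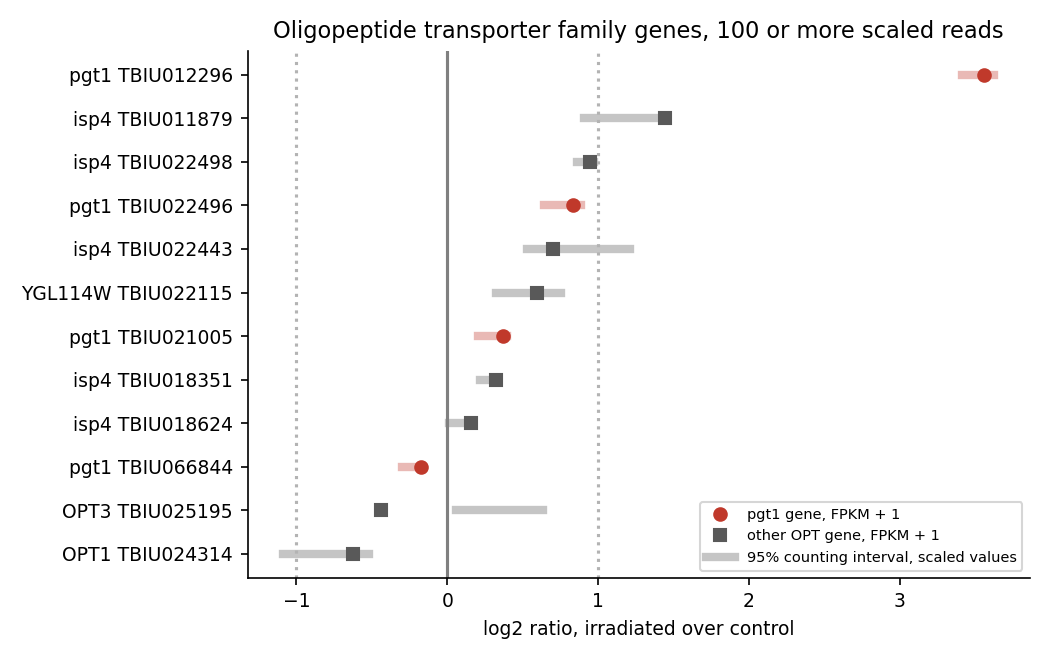
Log2 ratio of FPKM + 1, irradiated over control, of the 12 oligopeptide transporter family genes with 100 or more scaled reads (points), with the 95% counting interval of the ratio of scaled values (bars) and dotted lines at 2-fold. TBIU012296 lies at 3.56, and the next gene, the isp4 gene TBIU011879, at 1.44.

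Other peptide transporters, of the PTR type that carries small peptides with protons, were close to level between the libraries. Of 3 measured genes, 0 were 2-fold apart, and their log2 ratios ran from -0.19 to 0.27. The most abundant, a PTR2 gene (TBIU051668), had 297 FPKM in the irradiated library and 338 FPKM in the control library.

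Enzymes that make glutathione or take it apart showed no common direction. The list matched 8 measured genes, of which 1 passed 2-fold upward and 0 downward, and their median log2 ratio was 0.15. The higher gene was gamma-glutamyltranspeptidase ggt1 (TBIU015337), which splits the gamma-glutamyl bond of glutathione, with 104 FPKM in the irradiated library and 47.7 FPKM in the control library (log2 ratio 1.11, interval 0.98 to 1.29). The most abundant was DUG3 (TBIU009816), part of the cytosolic glutathione-degrading complex of budding yeast, with 126 FPKM in the irradiated library and 237 FPKM in the control library (log2 ratio -0.91). A second DUG3 gene (TBIU012783) had -0.36, and the Cys-Gly dipeptidase dug1 (TBIU021970), which finishes that breakdown, had -0.57. Glutathione synthetase gss (TBIU009437) had 15.5 FPKM in the irradiated and 13.3 FPKM in the control library (log2 ratio 0.21). Taken alone, its isoform of most reads gave 1.36. None of 4 genes described as glutamate-cysteine ligase, the first enzyme of glutathione synthesis, reached 100 scaled reads, and the deepest held 9.04. Of the 8 genes, 2 act on other glutathione adducts and were matched by their names. Without them the median was -0.10 over 6 genes.

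Among 22 measured genes that use or recycle glutathione, 4 passed 2-fold upward and 0 downward, and the median log2 ratio was 0.18. Over all measured genes, 9.32% passed it upward and 8.68% downward. The genes on other glutathione adducts, already counted in the list before, are on this list as well. Glutathione reductase gtr-1 (TBIU008583), which returns oxidised glutathione to its thiol form, had 168 FPKM in the irradiated library and 71.9 FPKM in the control library (log2 ratio 1.21). A glutathione S-transferase (GSTF1_ARATH, TBIU008383), of the enzymes that couple glutathione to other molecules, had 82.4 FPKM in the irradiated library and 32.2 FPKM in the control library (log2 ratio 1.33). The class-mu transferase GST28 (TBIU022371) had a log2 ratio of 1.17. The glutaredoxin-like gene YD286_MOUSE (TBIU047312), with an estimated effective length of about 181 nucleotides, had 1.79 (interval 1.20 to 2.40). This ratio rests on 110 scaled values in the irradiated library and 32.1 in the control library. The most abundant, microsomal glutathione S-transferase Mgst3 (TBIU003776), had 1489 FPKM in the irradiated library and 1467 FPKM in the control library. ABC transporters of the C family, which include the vacuolar pumps for glutathione conjugates in yeast, had 2 of 6 measured genes past 2-fold upward and 0 downward (median 0.47). These were ABCC2 (TBIU011621), at 36.9 FPKM in the irradiated and 15.8 FPKM in the control library, and an Abcc1 gene (TBIU023688), at 10.2 FPKM in the irradiated and 4.26 FPKM in the control library. The most abundant, ABCC1 (TBIU021628), had 198 FPKM in the irradiated and 112 FPKM in the control library (log2 ratio 0.81).

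The list for sulfur assimilation went both ways, with 2 of 19 measured genes past 2-fold upward and 3 downward, at a median log2 ratio of 0.23. The higher genes were both described as cystathionine gamma-synthase SPBC15D4.09c, an enzyme on the path from cysteine to methionine. TBIU009019 had 116 FPKM in the irradiated library and 38.5 FPKM in the control library (log2 ratio 1.57), and TBIU020773 had 13.2 FPKM in the irradiated and 3.92 FPKM in the control library (1.53). Another gene of that description (TBIU055905) had 4.52 FPKM in the irradiated library and 10.3 FPKM in the control library (-1.03). A cystathionine beta-synthase, CYS4 (TBIU025509), which joins homocysteine to serine on the path to cysteine, had 120 FPKM in the irradiated library and 256 FPKM in the control library (-1.08). A second cystathionine beta-synthase, cysB (TBIU003383), had 441 FPKM in the irradiated library and 240 FPKM in the control library (0.87). Cystathionine gamma-lyase cysA (TBIU020237) fell just short of 2-fold downward, with 70.7 FPKM in the irradiated and 141.9 FPKM in the control library (-0.996). The last lower gene, metK (TBIU002652, -1.14), and the most abundant, eth-1 (TBIU017309, 0.10), are S-adenosylmethionine synthases that the text pattern matched by part of their name. Without 6 such matches, 2 of 13 genes passed 2-fold upward and 2 downward. The background for each of these lists is 9.32% of measured genes upward and 8.68% downward.

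**Figure D5:**
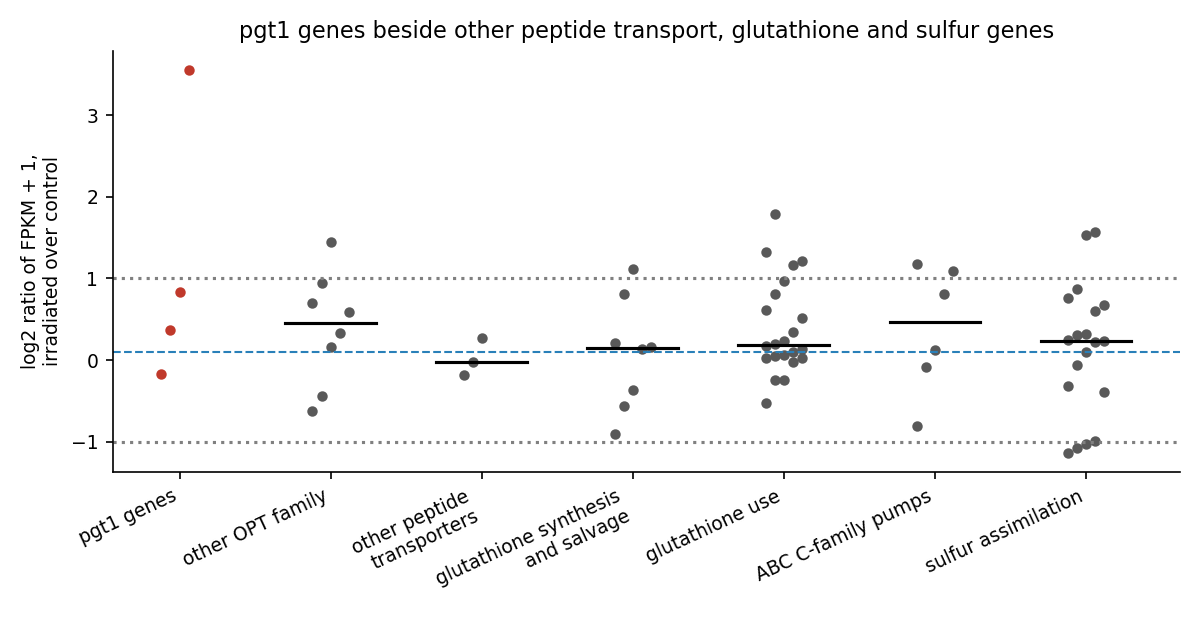
Log2 ratio of FPKM + 1, irradiated over control, of each measured gene (points) of the pgt1 set and 6 lists, with the list median (black bar), the median of all 8249 measured genes (dashed line, 0.10) and 2-fold (dotted lines). The largest ratio on these lists is 1.79, below the 3.56 of TBIU012296.

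The described genes most like TBIU012296 over the 2 libraries were found by the distance between their pairs of log2(FPKM + 1) values, among 4136 candidates. The nearest was quercetin 2,3-dioxygenase (yhhW, TBIU010411), with 325 FPKM in the irradiated library and 51.6 FPKM in the control library, at a distance of 0.66. Laccase-2 (lcc2, TBIU046262), an oxidase of phenols, had 406 FPKM in the irradiated library and 72.0 FPKM in the control library (distance 1.01). Next came the transcriptional regulator TRY4 (TBIU001557, 1.10), the dicarboxylic amino acid permease DIP5 (TBIU009961, 1.15) and the G1/S cyclin CCN1 (TBIU009042, 1.27). DIP5, which carries acidic amino acids such as glutamate in yeast, had 198 FPKM in the irradiated library and 44.0 FPKM in the control library. The log2 ratios of these 5 genes ran from 1.81 to 2.63, all under the 3.56 of TBIU012296. None of the 5 was another glutathione or OPT gene by description.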

How the data were processed

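Total RNA of fruit bodies was sequenced as 1 irradiated and 1 control library, each from 1000 ng of RNA. The deposited table gives FPKM per assembled transcript, made by the authors and named so per the file headers. The FPKM columns were matched to groups by the sample descriptions. No label or header names the tools for assembly, alignment or quantification. Further columns deposited by the authors are 2 of scaled values with no sample or unit in their names, the log2 fold change between them, and p-values and q-values. Which scaled column belongs to which library was inferred from its agreement with the FPKM columns, and every interval and depth rests on that. The scaled values were used as the authors' own comparison and as depth.

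FPKM and scaled values were summed over isoforms (Python 3.11.15, pandas 2.3.3, scipy 1.17.1). Effective length was taken as scaled value divided by the library's sum of scaled values and by FPKM, in the units of FPKM. This estimate is not the length of the assembled sequence, and it assumes that FPKM was scaled to all transcripts listed. Over 9477 transcripts the estimates of the libraries had a median ratio of 1.00. A gene was called from a 2-fold ratio on FPKM + 1. Intervals are exact Clopper-Pearson intervals at 95% unless stated. Calls and the intervals of single ratios were tried on simulated counts that held counting error only. The calls there were made on counts + 1, not FPKM + 1. That run did not cover the intervals of shares or of pairs, and it cannot speak to differences between fruit bodies.

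The members and lists were chosen with earlier results of these data known. Lists are text patterns matched to the description of the described isoform with the most reads. Named genes are the members, every list gene at least 2-fold apart, the most abundant gene of each list and the 5 genes nearest to TBIU012296. Other genes (SC3, SC7, further OPT, DUG3, dug1, gss, cysA, cysB and SPBC15D4.09c genes) were named after their values were seen. The text pattern for fruit body genes kept 8 genes with 0 at least 2-fold higher and 1 lower (LECRK54, TBIU007473). Of these, 4 are lectin-domain kinases or sorting proteins, and the remaining 4 were within 2-fold. The most abundant of the 8 was such a sorting protein (SPCC126.08c, TBIU003237). Alternatives were another scaling, pseudocounts, the scaled values, the deepest isoform of a gene alone and other minimums. No sequence of these transcripts was used here.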

Additional observations from a re-analysis of the deposited data

How the results depend on the processing

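No paired analysis was possible because each group has 1 library and no test was run. The ratios of the 4 pgt1 genes kept their direction under each alternative run (another scaling, pseudocounts of 0.1 and 5, scaled values, 1 isoform alone). A ratio, difference or share was counted as moved when it left the half-width of its 95% counting interval, and a list count when it changed by more than 1.5-fold. By these limits, 121 of 151 recomputed values stayed and 30 moved. A pseudocount of 5 gave 3.42 for TBIU012296 and 3.59 for its difference from TBIU066844. Removing the overall median of 0.10 gave -0.28 for TBIU066844 and 0.27 for TBIU021005. The share of TBIU012296 in the pgt1 sum was 56.4% in the irradiated and 10.7% in the control library by scaled values, and 14.7% in the irradiated library with the isoform with the most reads alone. The unit enters the first of these, since scaled values are not divided by length.

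List counts moved as follows. With the isoform with the most reads alone, OPT genes had 2 higher, glutathione synthesis and salvage genes 2 higher, C-family pumps 1 lower and sulfur genes 1 lower. Removing the overall median gave 1 lower gene in glutathione synthesis and salvage and 1 higher C-family pump. A pseudocount of 5 gave 1 higher C-family pump and 1 lower sulfur gene. A minimum of 20 scaled reads gave 3 lower genes of glutathione use and 1 lower C-family pump. Leaving out wrong matches, chosen after seeing the data, gave 0 lower fruit body genes. With no minimum, the higher and lower counts were 9 and 5 for OPT genes, 1 and 3 for other peptide transporters and 8 and 10 for glutathione synthesis and salvage. They were 33 and 26 for glutathione use, 10 and 3 for C-family pumps and 42 and 38 for sulfur genes, since most of the added genes have few reads. Leaving out a replicate was not possible with 1 library per group.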
